A study of Homo sapiens with 12 samples.

Results

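The genes described here encode the HMG chromatin proteins. They are the members HMGA1 and HMGA2, HMGB1, HMGB2 and HMGB3, and HMGN1, HMGN2, HMGN3, HMGN4 and HMGN5. The members were taken from the count table by their symbols, a rule that used no measured value. They were, however, chosen with earlier results of these data known. They are 10 of 62069 genes, 2 in the HMGA family, 3 in the HMGB family and 5 in the HMGN family. All 10 had enough reads to be tested, among 15284 genes that passed the filter on low counts.

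The libraries came from IMR90 ER:RAS cells, normal human lung fibroblasts that carry a RAS oncoprotein fused to an estrogen receptor domain, so that 4-hydroxytamoxifen (4OHT) switches RAS on and the cells enter oncogene-induced senescence (OIS). The RNA-seq libraries fell into 4 groups of 3, which were vector, labelled as non-induced (libraries T, A and C), and vector/4OHT, shXPO7_3/4OHT and shXPO7_5/4OHT (libraries T, A and B), the last 2 with an shRNA against XPO7, a nuclear transport receptor. All cells carried ER:RAS, were at passage 13 and were cultured for 7 days with new medium on day 4, and the labels give day 5 after induction for all 12, the non-induced ones included. 4OHT was given at 100 nM. The word vector for the first 2 groups is taken from the study, since the labels name only the state of induction and the shRNA. Since no source tells if a group's 3 libraries stem from different cultures, the p-values here reflect variation among libraries that could be technical.

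HMG proteins are small and abundant, and they bind DNA or nucleosomes with little regard for sequence. HMGA proteins bind the minor groove of AT-rich DNA through AT-hooks and are known to gather in the heterochromatin foci of senescent fibroblasts. HMGB proteins bend DNA through HMG boxes, HMGB1 also acts as an alarm signal when it leaves the cell, and loss of HMGB2 from senescent cells has been described. HMGN proteins bind the nucleosome core and compete with linker histone H1. HMGA2 is a classic target of the let-7 miRNAs, which pair through their seed with sites in its 3′ UTR.

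The let-7 sites of HMGA2 are shown because HMGA2 was the member that rose in OIS. miRNAs were not measured in these libraries. In the mature miRNA below, from RefSeq, at chr9:94175962-94175983 on the plus strand in GRCh38.p14, the seed (bases 2 to 8) is in capitals, and in the HMGA2 sites the capitals mark the letters complementary to it.
hsa-let-7a-5p: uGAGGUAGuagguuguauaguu
HMGA2 site 1: ggggcgccaacgttcgatttCTACCTCag
HMGA2 site 2: atatatccccactactcaataCTACCTCtg
HMGA2 site 3: gactaattgacttgcaaagacCTACCTCca
HMGA2 site 4: ttgtacaatcaaaacacactaCTACCTCtt

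The other let-7 members with an entry and miR-98 share that seed. The sites lie on the plus strand in exon 5 of HMGA2, the last exon, within the 3′ UTR, at chr12:65963293-65963321, chr12:65964527-65964556, chr12:65964939-65964968 and chr12:65965792-65965821 in GRCh38. They were found by a search of the sense strand of the 3003-base 3′ UTR of the principal transcript of HMGA2 for CTACCTC. HMGA1 had 1 match in a 3′ UTR of 1347 bases, and the other 8 members had none. Of 12766 tested genes with such a UTR, 9.89% held at least 1 match. Of the 1511 with a UTR within 20% of the HMGA2 length, 2 genes (0.132%) held at least 4. These counts may include HMGA2 itself. The search of principal transcripts was made after a search of the longest 3′ UTRs had found no site in HMGA2. A match describes letters and does not show that a site is used.

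The libraries held 28534141 to 60397769 counts. XPO7 was lower in both knockdown groups, at 27.67 ± 1.136 CPM with shXPO7_3 and 52.21 ± 1.621 with shXPO7_5 against 136.6 ± 8.81 in vector/4OHT (mean ± SD, n = 3; CPM are counts relative to the TMM-scaled total of a library). The 10 fibroblast markers summed to 27390.0 to 31740.0 CPM per library in vector and to 20210.0 to 26480.0 in the groups with 4OHT, and 5 of them fell in OIS, among them DCN, COL1A2 and THY1 with log2 fold changes of -3.37, -1.16 and -0.67 (edgeR adjusted p = 3.33e-11, 3.2e-07 and 7.77e-05). The part of this shift in the results below was not tested. Of 3 tested epithelial markers 0 rose and 2 fell, among them KRT8 at -0.63 (edgeR adjusted p = 0.00904), from 9.775 CPM in vector. Of 3 tested endothelial markers 0 rose and 1 fell, TEK at -0.98 (edgeR adjusted p = 1.52e-06), from 12.43 CPM in vector, and the median of the 3 was 0.50. All 6 immune markers stayed below 1 CPM in each group mean, as did 4 of 6 epithelial and 4 of 6 endothelial markers. The GC content of a gene's transcripts was related to its value in some libraries. The trend on GC content and length put HMGB1, whose transcripts have 40.34% GC, at -0.32 and -0.41 on the log2 scale in shXPO7_5/4OHT libraries T and B, at -0.19 in shXPO7_3/4OHT library T and at -0.23 in vector library T, and between 0.049 and 0.22 in the other 8. These libraries stand apart in the results for the AT-rich members below. In bulk RNA, fewer cells that express a gene and less RNA per cell cannot be told apart.

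OIS, the comparison of vector/4OHT with vector, addresses what 4OHT does to the HMG transcripts of cells with ER:RAS. No 4OHT-treated cells without ER:RAS were among the libraries, so effects of 4OHT and of RAS cannot be told apart. Nor was there a non-induced group with an shRNA. HMGB2 fell 9.04-fold, HMGN2 2.78-fold and HMGB3 1.98-fold, HMGB1, HMGN3 and HMGN1 fell by smaller amounts, and HMGA2 rose 2.28-fold. HMGA1, HMGN4 and HMGN5 did not pass the test. Thus 7 of the 10 members were called at an adjusted p under 0.05, against a background of 50.9% of all genes tested. 1 member rose, against 24.8% of all genes, and 6 fell, against 26.1%. HMGB2, HMGN2 and HMGA2 also had a log2 fold change of at least 1 in size, which 16.8% of all genes had together with a call. The vector and vector/4OHT libraries did not overlap for 8 members, against 63.2% of all genes. The median log2 fold change was -0.335 over the 10 members and -0.0068 over all genes.

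HMGA2 was at 560.4, 599.4 and 661.2 CPM in vector libraries T, A and C, and at 1411, 1402 and 1336 CPM in vector/4OHT libraries T, A and B. Every induced library was far above every non-induced one. The log2 fold change was 1.19 (SE 0.11, 95% confidence interval 0.94 to 1.43, edgeR adjusted p = 2.53e-06). An exact two-sided permutation test of the difference in mean CPM gave p = 0.1, the smallest value that 3 libraries against 3 allow. HMGA2 spans chr12:65824131-65966295 on the plus strand in GRCh38 and overlaps RPSAP52 and other genes on the minus strand, and because the strand setting of the counting is not given in the sources used here, reads of these genes cannot be told apart.

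HMGA1, the close relative of HMGA2 with the same AT-hooks, was at 1051, 981.2 and 909.6 CPM in the vector libraries and at 1082, 1097 and 1100.0 in vector/4OHT. The groups did not overlap, but the gap was small beside the spread of the vector libraries. This came to a log2 fold change of 0.16 (SE 0.10, interval -0.061 to 0.37) and was not called (edgeR adjusted p = 0.212). It was called after an offset for GC content and length, at 0.29 (edgeR adjusted p = 1.97e-05, range over all alternatives 1.97e-05 to 0.723). HMGA1 transcripts have 61.43% GC, the highest among the members.

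Levels of different genes were compared per kilobase of the principal transcript. HMGA1 was the larger part of the HMGA family in every group. HMGA2 made up 23.1% ± 2.76 of the HMGA level per kilobase in vector and 37.9% ± 0.86 in vector/4OHT (mean ± SD, n = 3), and the ranges, 20.5% to 26.0% and 37.0% to 38.6%, did not overlap. The ratio of HMGA2 to HMGA1 rose by 1.03 on the log2 scale (exact permutation p = 0.1). With the length of all exons in place of that of the principal transcript, a setting added after the data were seen, the share of HMGA2 rose by 7.45 percentage points.

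All 3 HMGB genes fell in OIS. HMGB2, an HMG-box protein tied to proliferating cells, was at 72.06, 80.96 and 83.0 CPM in vector and at 8.499, 8.329 and 9.239 in vector/4OHT. The induced libraries kept 11.04% of the vector level, and their spread was small beside the gap. The log2 fold change was -3.18 (SE 0.12, interval -3.43 to -2.92, edgeR adjusted p = 5.73e-10), the largest among the members. HMGB2 lies at chr4:173331695-173335125 on the minus strand in GRCh38 and overlaps no other annotated gene.

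HMGB3, a family member known from stem and progenitor cells, was at 40.29, 46.2 and 44.58 CPM in vector and at 21.43, 21.76 and 22.86 in vector/4OHT. No library of one group came near the other. Its log2 fold change was -0.99 (SE 0.071, edgeR adjusted p = 1.97e-07).

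HMGB1, the most abundant HMGB protein of most cells, was at 158.2, 202.2 and 209.2 CPM in vector and at 114.5, 120.7 and 111.4 in vector/4OHT. The groups did not overlap, and vector library T lay nearest to the induced libraries. HMGB1 thus had a log2 fold change of -0.72 (SE 0.15, edgeR adjusted p = 0.00169), and -0.81 with the GC content and length offset. HMGB1 overlaps other annotated genes on both strands, whose reads cannot be told apart here. Transcript levels bear neither on where HMGB1 protein was in the cell nor on its release.

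The make-up of the HMGB family turned over with the unequal falls. Per kilobase, HMGB2 was 47.1% ± 1.37 of the family in vector and 14.5% ± 0.962 in vector/4OHT. HMGB1 went from 39.0% ± 1.87 to 66.1% ± 1.74 and HMGB3 from 13.9% ± 0.614 to 19.4% ± 0.786 (mean ± SD, n = 3). For all 3 the libraries of the groups did not overlap. Per kilobase the first place thus passed from HMGB2 to HMGB1, whose own level fell from 34.61 to 21.06 CPM per kilobase while that of HMGB2 fell from 41.65 to 4.6. With counts not divided by length the share of HMGB2 changed by -19.3 percentage points in place of -32.7, that of HMGB1 by 18.3 in place of 27.2 and that of HMGB3 by 1.01 in place of 5.53, and HMGB1 already had more CPM than HMGB2 in vector. The ratio of HMGB2 to HMGB1 fell by 2.47 on the log2 scale (exact permutation p = 0.1).

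In the HMGN family the changes ranged from none detected to a 2.78-fold fall. HMGN2 was at 222.0, 194.1 and 179.9 CPM in vector and at 70.75, 68.8 and 75.11 in vector/4OHT. All induced libraries lay far below the lowest vector library. HMGN2 had a log2 fold change of -1.47 (SE 0.10, interval -1.70 to -1.25, edgeR adjusted p = 1.55e-07). HMGN2 lies at chr1:26472450-26475972 on the plus strand in GRCh38 and overlaps no other annotated gene.

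The 250 bases upstream of HMGN2, at chr1:26472190-26472439 on the plus strand in GRCh38.p14 (RefSeq), are shown because it fell most among the members with an entry. The letters of a CCAAT box are in capitals.
HMGN2 upstream window: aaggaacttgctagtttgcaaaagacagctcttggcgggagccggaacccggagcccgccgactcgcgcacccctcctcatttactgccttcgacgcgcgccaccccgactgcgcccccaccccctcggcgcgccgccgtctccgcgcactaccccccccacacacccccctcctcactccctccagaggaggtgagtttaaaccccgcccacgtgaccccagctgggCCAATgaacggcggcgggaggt

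The motifs searched, on both strands, were the CCAAT box (CCAAT), the cell cycle element CHR (TTTGAA) and an E2F-like site (TTTNNCGC). HMGN2 held 1 CCAAT box, which 32.0% of 35116 promoters hold, and neither of the others, which 13.3% and 5.92% hold. HMGA2 and HMGB2 have no entry in the table used. Of the other members that fell, HMGN1 and HMGN3 held 2 CCAAT boxes each. HMGB1 held 3 and 1 in 2 of its 3 windows and HMGB3 held 3 in 1 of its 2 windows, both with a CHR in 1 window. HMGN4 and HMGN5 held none of the motifs, and HMGA1 held 1 CCAAT box in 1 of its 2 windows. A gene with more windows has more chances of a match, and the windows with 2 or more boxes overlap annotated exons of their gene.

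HMGN1, a nucleosome-binding protein that loosens chromatin, was at 163.2, 169.7 and 169.9 CPM in vector and at 148.1, 140.5 and 140.5 in vector/4OHT. The groups did not overlap, yet the fall was small. Its log2 fold change was -0.23 (SE 0.070, edgeR adjusted p = 0.0161). The call was lost without vector/4OHT library A, at -0.21 (edgeR adjusted p = 0.0647), and without the filter on low counts, at -0.22 (edgeR adjusted p = 0.0817). Over all alternatives the adjusted p of HMGN1 ran from 0.000319 to 0.0817.

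HMGN3, first found by its binding to the thyroid hormone receptor, was at 17.77, 22.01 and 22.33 CPM in vector and at 15.0, 15.31 and 15.49 in vector/4OHT, again without overlap and with vector library T nearest to the induced ones. Its log2 fold change was -0.44 (SE 0.12, edgeR adjusted p = 0.00853). HMGN3-AS1 lies on the other strand of HMGN3, so reads of both cannot be told apart here.

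HMGN4, a gene without introns in its coding part that resembles HMGN2, was at 60.19, 61.19 and 60.45 CPM in vector and at 63.32, 55.75 and 62.21 in vector/4OHT. The vector libraries lay inside the range of the induced ones. HMGN4 had a log2 fold change of -0.0038 with an interval of -0.16 to 0.15 (edgeR adjusted p = 0.969). HMGN5, a longer HMGN protein with an acidic tail, was near the limit of the depth, with 22 to 112 counts per library. Its log2 fold change was -0.0035 with an interval of -0.72 to 0.72, so a change of either sign within that interval is not excluded.

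Per kilobase, HMGN2 was the first of the HMGN family in vector at 46.0% ± 3.4 and the second in vector/4OHT at 26.0% ± 0.921. HMGN1 went from 33.5% ± 1.85 to 44.7% ± 1.14 and HMGN4 from 13.7% ± 0.507 to 21.3% ± 0.806 (mean ± SD, n = 3), without overlap between the groups. The sizes of these gains and the order of the members depend on the length used. With the length of all exons, a setting added after the data were seen, HMGN1 gained 5.23 percentage points in place of 11.2 and HMGN4 13.2 in place of 7.64. HMGN4 then came before HMGN1 and HMGN2 in vector/4OHT. HMGN4 gained share while its own CPM overlapped between the groups. HMGN3 held 6.58% ± 1.0 and 7.58% ± 0.296, which overlapped, and HMGN5 at most 0.451% in any vector or vector/4OHT library.

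**Figure D1:**
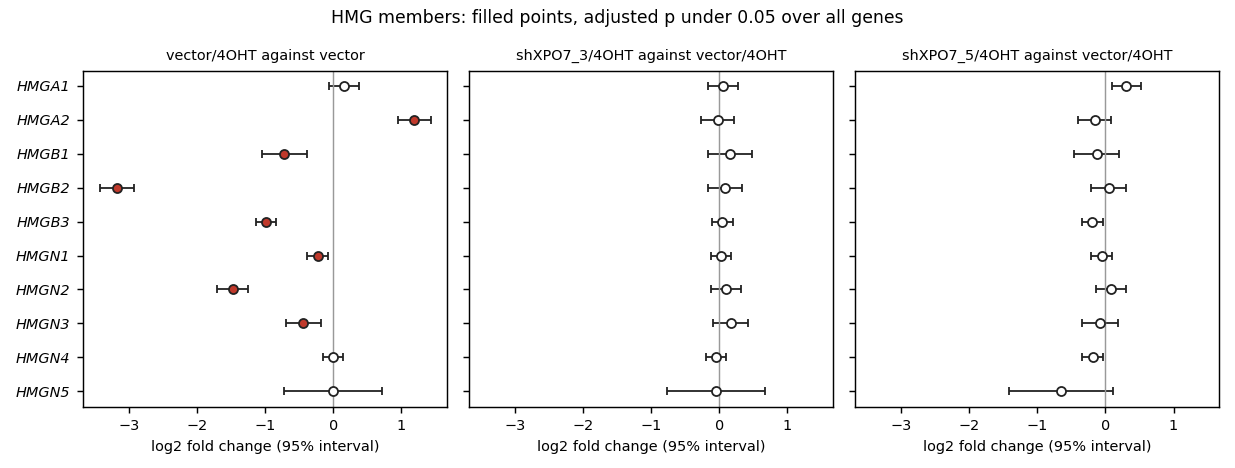
Log2 fold change of each member with its 95% confidence interval (horizontal axes) in OIS and with each shRNA against vector/4OHT, from the fit to all 12 libraries. Filled points have an adjusted p under 0.05 over all genes tested. 7 points are filled in OIS and none in the knockdowns, and the HMGN5 intervals are the widest.

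Processed pseudogenes of HMG genes are many, and reads can be split between a gene and its copies. The annotation holds 153 such entries for the members. 75 of them had 0 counts in all 12 libraries and 7 had at least 100. For HMGN2 they came to between 3.246% and 4.681% of its own counts per library, the highest share of a member. The HMGN2 copies HMGN2P8 and HMGN2P17 fell in OIS, with log2 fold changes of -1.42 and -1.60 (edgeR adjusted p = 5.41e-06 and 0.00523), next to -1.47 for HMGN2 itself. The HMGB1 copy HMGB1P8 fell by 1.24 (edgeR adjusted p = 0.00632), while HMGA1P6, with the most counts of all copies, had a log2 fold change of 0.025 (edgeR adjusted p = 0.889). These values are uncertain for both gene and copy. Adding the copies' counts to their member changed no member's call in any comparison.

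Other chromatin genes were counted from lists of related genes in OIS. Of all genes tested, 24.8% rose and 26.1% fell, and the list counts below stand beside these shares. Among linker histones, the proteins that HMGN proteins compete with on nucleosomes, H1-10 and H1-2 fell, with log2 fold changes of -0.91 and -0.54 (edgeR adjusted p = 5.27e-05 and 0.00089), from 32.48 to 17.26 CPM and from 13.06 to 8.993 CPM.

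Of 16 tested genes tied to heterochromatin foci, 2 rose and 7 fell, with a median of -0.295. LMNB1, the lamin B1 gene, fell by 3.08 on the log2 scale (edgeR adjusted p = 7.26e-11). DEK, a chromatin architecture protein, fell by 1.02 (edgeR adjusted p = 0.0115), and SUV39H1, an H3K9 methyltransferase, fell by 0.80 (edgeR adjusted p = 0.000126).

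Of 16 tested genes for other HMG-box proteins, 2 rose and 5 fell, with a median of -0.185. TOX fell by 4.94 on the log2 scale, from 15.67 to 0.5253 CPM (edgeR adjusted p = 1.27e-09). WDHD1, a replication fork protein, fell by 0.97 (edgeR adjusted p = 0.0164), and HMGXB3 rose by 0.77 (edgeR adjusted p = 0.000112).

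Of 9 tested genes around let-7 and HMGA2, 3 rose and 1 fell, with a median of -0.035. ARID3B, a let-7 target, rose from 3.641 to 16.44 CPM, by 2.18 on the log2 scale (edgeR adjusted p = 3.3e-09), and TUT7, a uridylyltransferase that acts on let-7 precursors, rose from 43.74 to 99.48 CPM (edgeR adjusted p = 0.00193). DROSHA, the nuclease that starts miRNA processing, fell by 0.51 (edgeR adjusted p = 3.18e-05). The third that rose was IGF2BP1, an RNA-binding protein gene named after its value was seen, at 0.32 (edgeR adjusted p = 0.00883).

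Of 9 tested genes of extracellular HMGB1 signalling, 2 rose and 1 fell, with a median of 0.018. THBD, thrombomodulin, which binds HMGB1, rose by 3.03 on the log2 scale (edgeR adjusted p = 8.38e-09). CXCL12, a chemokine that forms a complex with HMGB1, fell by 5.24, from 26.36 to 0.6987 CPM (edgeR adjusted p = 1.43e-10). CXCR4, the receptor of that chemokine, was at 0 CPM in vector and 0.2785 CPM in vector/4OHT (edgeR adjusted p = 0.000324) and is named after its value was seen.

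All 10 proliferation genes fell, with a median of -2.7. MKI67, PLK1 and AURKB had log2 fold changes of -3.30, -3.07 and -2.93 (edgeR adjusted p = 8.93e-11, 1.37e-09 and 5.98e-10), beside -3.18 for HMGB2. These genes fell in OIS, as did HMGB2 and HMGN2, and their part in the values of those members was not tested.

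The genes whose values over the 12 libraries lay closest to a member were listed for the 3 members with a log2 fold change of at least 1 in size, by the root mean square difference of log2 CPM centred on the mean of each gene, among 10685 genes. For HMGB2 they were PLPP3, ATP8B1 and NEK2, with differences of 0.119, 0.157 and 0.17, where the median gene was at 1.39. For HMGN2 they were MARCHF8, CSF1 and TIMELESS, at 0.0783, 0.0804 and 0.0817, and for HMGA2 they were MTAP, ETNK1 and KLHL5, at 0.0549, 0.0594 and 0.0622. The likeness is over these 12 libraries alone, in which the step between vector and the 3 groups with 4OHT dominates.

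The comparisons of each shRNA with vector/4OHT address whether depletion of XPO7 altered the HMG transcripts during OIS. They share the vector/4OHT libraries with each other and with the OIS comparison. No member was called with either shRNA. HMGB2 was at 8.096, 9.782 and 9.892 CPM in shXPO7_3/4OHT libraries T, A and B and at 8.118, 10.45 and 8.408 in shXPO7_5/4OHT, overlapping with vector/4OHT in both. HMGA2 was at 1158, 1451 and 1468 CPM in shXPO7_3/4OHT and at 1201, 1423 and 1090.0 in shXPO7_5/4OHT, around the narrow vector/4OHT range of 1336 to 1411. HMGN2 was at 84.82, 73.06 and 71.08 CPM and at 83.64, 69.04 and 73.95, again overlapping with vector/4OHT, and library T was the highest in both groups. The group means of HMGB2 were 11.04%, 11.77% and 11.43% of the vector mean in vector/4OHT, shXPO7_3/4OHT and shXPO7_5/4OHT. Those of HMGN2 were 36.02%, 38.42% and 38.03%, and those of HMGA2 were 227.8%, 223.9% and 203.9%.

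With shXPO7_3, 0 of 10 members were called by edgeR and 0 had an unadjusted p under 0.05, against 0.124% of all genes called and 6.41% with such a p. The groups overlapped for all 10 members, while they did not for 14.6% of all genes. DESeq2 called 0 members as well. The log2 fold changes lay between -0.047 for HMGN5 and 0.17 for HMGN3, with a median of 0.046. For HMGA2 the 95% interval of the log2 fold change was -0.27 to 0.22, for HMGB2 -0.16 to 0.34 and for HMGN2 -0.13 to 0.31. Every edgeR adjusted p was 0.999.

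With shXPO7_5, 0 of 10 members were called by edgeR and 3 had an unadjusted p under 0.05, against 0.589% of all genes called and 21.6% with such a p. The 3 were HMGA1, HMGB3 and HMGN4. DESeq2 called 0 members, and it gave no adjusted p for HMGN5. The groups did not overlap for HMGA1 and HMGB3, 2 of 10, against 26.8% of all genes. The median log2 fold change of the members was -0.107. Within the HMGB family the share of HMGB2 per kilobase was 16.2% ± 0.41 with shXPO7_5 and 14.2% ± 0.575 with shXPO7_3, next to 14.5% ± 0.962 in vector/4OHT (mean ± SD, n = 3). With the GC content and length offset the log2 fold changes with shXPO7_5 were 0.25 for HMGB2 and 0.19 for HMGB1, in place of 0.047 and -0.13. HMGN3 went from -0.083 to 0.20 under that offset. HMGA2 and HMGN4 were lower with it, at -0.26 and -0.27 in place of -0.16 and -0.19.

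HMGA1 was at 1346, 1165 and 1549 CPM in shXPO7_5/4OHT libraries T, A and B, all above the highest vector/4OHT library at 1100.0. Libraries T and B, which stood apart in GC content, were the highest. The log2 fold change was 0.31 (SE 0.10, interval 0.091 to 0.53, edgeR adjusted p = 0.158). It was 0.12 with the GC content and length offset and 0.094 without libraries T and B, an alternative added after the data were seen. The direction held in the 3 settings.

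HMGB3 was at 19.23, 19.57 and 19.05 CPM in shXPO7_5/4OHT, below the lowest vector/4OHT library at 21.43, with a log2 fold change of -0.19 (SE 0.071, edgeR adjusted p = 0.192). The 3 libraries lay close together, library A included, and without T and B the value was -0.17. With the GC content and length offset it was -0.055. HMGN4 was at 53.19, 55.81 and 50.04 CPM, where library A overlapped with the lowest vector/4OHT library, and its log2 fold change was -0.19 (SE 0.070, edgeR adjusted p = 0.191).

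HMGN5 was at 0.7411, 1.963 and 0.7917 CPM, from 22, 65 and 29 counts, with libraries T and B low and library A inside the vector/4OHT range. The log2 fold change was -0.65 (interval -1.42 to 0.12, edgeR adjusted p = 0.267). With an offset for GC content and length it was -0.36 (edgeR adjusted p = 0.431), and without libraries T and B it was 0.10. Libraries T and B were also the lower ones for HMGB1, at 96.98, 125.2 and 94.56 CPM, and for HMGN3, at 13.34, 16.85 and 13.05, with library A above the vector/4OHT range for both. Their transcripts have 40.34% and 40.83% GC, where the median of all genes tested with a value is 49.3%.

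Which members were called with shXPO7_5 depended on 1 library, as did the count of all genes called. Without shXPO7_5/4OHT library A, 3 members were called: HMGA1 at 0.41, HMGN4 at -0.23 and HMGN5 at -1.25 (edgeR adjusted p = 0.028, 0.0485 and 0.0334, the lowest over the alternatives of each, and 1 the highest). In that setting 3634 genes were called in all, in place of 90, where the main fit tested 15284. The 3 calls are thus not particular to the members. With the GC content and length offset 1 member was called, HMGB1, at 0.19 in place of -0.13 (edgeR adjusted p = 0.0496, range over all alternatives 0.0496 to 1). Without libraries T and B, leaving library A as the lone shXPO7_5 library, whose spread is then assumed to be that of the other groups, 0 members and 1 gene were called.

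Over 14864 tested genes with a GC value, the Spearman correlation of GC content with the log2 fold change was 0.674 with shXPO7_5, 0.114 with shXPO7_3 and -0.13 in OIS. It is across genes, which are not independent replicates, and is given as a description. In OIS 8 members were called with the offset, the 7 named above and HMGA1. In that setting 9668 of all genes were called, in place of 7777.

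Between the shRNAs, 0 of 10 members were called by edgeR and 2 had an unadjusted p under 0.05, HMGA1 and HMGB3, against 0.0131% of all genes called and 11.9% with such a p. HMGB3 was lower with shXPO7_5, by 0.23 on the log2 scale (SE 0.071, interval -0.39 to -0.077, edgeR adjusted p = 0.388), and its libraries did not overlap, at 19.05 to 19.57 CPM against 22.19 to 23.26. HMGA1 was higher with shXPO7_5, by 0.26 (SE 0.10, edgeR adjusted p = 0.388), with overlap. The libraries of the shRNAs also did not overlap for HMGN4, which makes 2 of 10 members against 9.71% of all genes. No library with an shRNA reached the range of the vector libraries for HMGA2, HMGB1, HMGB2, HMGB3, HMGN1 or HMGN2. For HMGN3, shXPO7_3/4OHT library B did, at 18.44 CPM.

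Among the related lists, 2 genes were called with shXPO7_5 and none with shXPO7_3. PLK1 was higher by 0.72 and AURKB by 0.63 on the log2 scale (edgeR adjusted p = 0.0265 and 0.0285), both proliferation genes. PDGFRB, a fibroblast marker, was also called, at 0.59 (edgeR adjusted p = 0.0256). The linker histone H1-10, at 0.56, was not (edgeR adjusted p = 0.0615). Beside the higher PLK1 and AURKB, the log2 fold change of HMGB2 with shXPO7_5 was 0.047, with an interval of -0.21 to 0.30. The HMGB2 value was 0.25 with the GC content and length offset (edgeR adjusted p = 0.0515) and 0.26 without libraries T and B. The calls of PLK1, AURKB and PDGFRB come from the fit without that offset, so GC content was not accounted for in them.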

How the data were processed

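Cells of the IMR90 ER:RAS line were profiled by RNA-seq with a stranded mRNA kit. The authors deposited raw counts of reads per gene. Per the submitters' processing notes, TopHat2 2.0.11, CASAVA 1.8.4 and featureCounts 1.18.0 were used, with hg19 and GRCh37 as builds. Neither the annotation nor the strand setting nor the rule for multi-mapped reads is given in the sources used here, so copies and antisense partners of a gene may take or lend reads. 92 spike-in entries held 0 counts and were left out.

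Counts were fitted in R 4.3.3 with edgeR 4.0.16 (limma 3.58.1): filterByExpr on the groups, TMM scaling, a quasi-likelihood model of the 4 groups over all 12 libraries, and Benjamini-Hochberg adjustment over 15284 genes, with calls at an adjusted p under 0.05. The paper names gene set enrichment analysis, which was not repeated here, and no test for single genes. The fit was tested on simulated data. Single values had an exact two-sided permutation test. Family shares used counts per kilobase of the APPRIS principal transcript of GENCODE release 29 (GRCh38), matched by Ensembl identifier only, and sequences came from that release and RefSeq. The let-7 search was moved to principal transcripts after a search of the longest 3′ UTRs had found no site in HMGA2.

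Named genes are all 10 members, up to 3 genes per list with the largest change called in OIS at an average log2 CPM of at least 2, list genes called in a knockdown, the 3 genes nearest to each member with a called log2 fold change of at least 1 in size, the 2 pseudogenes with the most counts per member, of which the text gives the better covered, and XPO7. For linker histones, 1 gene that the rule names and the counts of the list are left out. IGF2BP1 and CXCR4 were named after their values were seen. The members and lists were chosen with earlier results of these data known. Alternatives were upper-quartile or RLE factors, 1 CPM in 6 libraries or only 1 count as the filter, a replicate block, a fit to the 2 groups, each library left out, DESeq2 1.42.0, a minimum log2 fold change of 1, pseudogene counts added, and an offset per library from a spline with 5 degrees of freedom on GC content and length, which 97.3% of tested genes had. The length of all exons and leaving out shXPO7_5/4OHT libraries T and B together were added after the data were seen.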

Additional observations from a re-analysis of the deposited data

Results flagged for a closer look

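The level of XPO7 differed between the shRNAs in its own test, with shXPO7_5/4OHT higher than shXPO7_3/4OHT by 0.916 on the log2 scale (95% confidence interval 0.76 to 1.07, edgeR adjusted p = 0.000387), at 50.83 to 54.0 CPM against 26.43 to 28.65. All 3 libraries of one group lay above all 3 of the other. No group had the 4 libraries needed to test for a library far from the rest.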

How the results depend on the processing

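Among the fold changes of members under the alternatives, 613 kept their side of the threshold and, where called, their direction, 4 gained a call, 2 lost it and 1 was called with the opposite sign, which was HMGB1 with shXPO7_5 under the GC content and length offset, at 0.192 in place of -0.13 (edgeR adjusted p = 0.0496). HMGB1 transcripts are AT-rich and the cause was not tested. HMGN5 with shXPO7_5 had no adjusted p under DESeq2 and was counted among those that kept their side. The members called in OIS were 7, and 3 at a log2 fold change of at least 1. With shXPO7_5 they were 0, 1 under that offset and 0 to 3 over the fits without 1 library each. Without library A of that group they were the 3 named above. Of the changes of family shares, 79 moved by less than the spread between libraries and 11 by more, with the shares of counts or the length of all exons. The count of all genes called moved more. In OIS it was 7777, with 9668 under the offset and 2573 at a log2 fold change of at least 1. With shXPO7_3 it was 19, with 8 under upper-quartile factors, 30 without a filter, 304 under the offset, 2 in the fit to the 2 groups, 88 with DESeq2, 2 at a minimum log2 change of 1, and 1 in each fit without a library. With shXPO7_5 it was 90, with 217 without a filter, 431 under the offset, 10 in the fit to the 2 groups, 426 with DESeq2, 8 at a log2 fold change of at least 1, 2 to 3634 without 1 library and 1 without libraries T and B. That range was 2 without vector/4OHT T or A or shXPO7_5/4OHT T, 7 without shXPO7_5/4OHT B, 14 without vector/4OHT B and 3634 without shXPO7_5/4OHT A. Between the shRNAs it was 2, with 20 without a filter, 23 under the offset, 0 in the fit to the 2 groups, 27 with DESeq2, 0 at a log2 fold change of at least 1, 1 to 4 without 1 library (4 without shXPO7_3/4OHT T, 2 without shXPO7_5/4OHT A, 1 without any other) and 1 without libraries T and B. The main fit did not pair libraries by replicate letter. Of 15 correlations of deviations between libraries with the same letter, 8 were above 0.1, over a range of -0.234 to 0.589. These values do not settle if libraries with the same letter share an origin. With the letter as a replicate block 149 genes were called with shXPO7_5 and no member changed its call in any comparison. Depth limits HMGN5 most, at 22 to 112 counts per library.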
